A study of Mus musculus with 36 samples.

Results

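The genes described here are 34 genes of cholesterol and fatty acid synthesis, with the factors that control them and the proteins that move sterols, chosen by gene name and by an expression filter of at least 1 CPM (the count of a gene scaled by library size) in at least 12 of the 36 libraries. All 34 passed that filter, among 13995 genes that passed it of the 55416 in the count matrix. They were 7 genes of the mevalonate pathway, 11 of the steps from squalene synthesis to cholesterol, 5 SREBP factors and their retention proteins, 3 sterol transport genes and 8 genes of fatty acid synthesis and desaturation.

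RNA was sequenced from myotubes of C2C12, a mouse myoblast line that fuses into multinucleate muscle cells in low-serum medium. All cultures had been transfected on the day before harvest with an antisense locked nucleic acid (LNA), either a negative control (control myotubes) or one against the long non-coding RNA *Tug1* (*Tug1* KD). On day 4 of differentiation they were kept at Rest, with electrodes in the medium and no current, or were contracted by electrical pulse stimulation (EPS) for 3 h. Stimulated cultures were collected at the end of the pulses, named EPS 0h, or were left to recover for 3 h, named EPS 3h. The 6 combinations had 6 libraries each, all from the same cell line. By the study's methods, each library was 1 well, and the 6 wells of a group came from 2 independent experiments, so the p values measure the spread between wells of this line.

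Cholesterol is built from acetyl-CoA through mevalonate, isoprenoid phosphates and squalene, and most enzymes of the route are transcribed under SREBP-2. SREBP-1 drives mainly the genes that make and desaturate fatty acids. Both precursors are held in the endoplasmic reticulum with SCAP by INSIG proteins when sterols are plentiful, and in muscle cells the products serve membranes, the T-tubule system and prenylated proteins.

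Each library held between 17005079 and 24181167 counts. *Tug1* was 48.3 ± 6.77 CPM (SD, n = 6) at Rest in control and 27.2 ± 3.68 CPM in *Tug1* KD myotubes, with no overlap, and the log2 fold change was -0.83 at Rest, -0.57 at EPS 0h and -0.51 at EPS 3h, each under an FDR of 0.05. *Tug1* itself rose with EPS, so that it was at 39.9 to 84.3 CPM in *Tug1* KD at EPS 3h. The summed myotube markers lay between 15520 and 21170 CPM in every library. The 6 cycling myoblast markers, which all passed the filter, summed in control to 136.3 to 175.8 CPM at Rest, 174.4 to 209.8 at EPS 0h and 123.0 to 177.9 at EPS 3h. In *Tug1* KD they summed to 122.4 to 153.5, 154.6 to 200.6 and 122.5 to 192.7 CPM. The adipocyte markers summed to 0.184 to 0.535 CPM at Rest, 0.875 to 2.285 CPM at EPS 0h and 2.68 to 4.30 CPM at EPS 3h. None of the 5 passed the filter. *Plin1*, the lipid droplet coat of fat cells, stayed at or below 0.164 CPM, so the sum rose mostly through other markers of this list. The 4 macrophage markers summed to 1.66 to 6.78 CPM, of which *Cd68* alone passed the filter and *Adgre1* was at 0 in every library of 4 groups, and the 4 fibroblast markers, of which 3 passed, summed to 405 to 657 CPM at Rest and 313 to 491 CPM at EPS 3h. At EPS 3h in control *Cd68* fell by 0.69 on the log2 scale (FDR = 0.00137), *Pdgfra* by 0.95 (FDR = 1.24e-06) and *Col1a1* by 0.60 (FDR = 3.51e-05), while *Dcn* was at 0.10 (FDR = 0.739). The part of these marker changes in the results was not tested. EPS 3h control replicate 3 stood apart. Deviation was taken from the other libraries of the same group and replicate set (1 to 3 or 4 to 6, a split that follows the data). Of the 36 libraries, this one had the largest median deviation (0.385 on the log2 scale). EPS 3h *Tug1* KD replicate 3 came next (0.299), so the results that rest on them are also given without them.

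The promoters of 3 members that rose after EPS and of 2 that fell are shown first, because sterol genes are known to be driven from short promoter elements. Each window runs 5′ to 3′ in the direction of transcription, from 250 bases before to 50 bases after the RefSeq start in build GRCm38.p6, and the table used held a window for 26 of the 34 members (34 windows). Capitals mark the sterol regulatory element TCACNCCAC, the CCAAT box, the GC box GGGCGG and the E-box CACGTG searched on both strands, so that a CCAAT box on the opposite strand reads ATTGG and a GC box CCGCCC. No match overlapped another in the windows printed.
*Hmgcs1*, chr13:119690101-119690400, plus strand: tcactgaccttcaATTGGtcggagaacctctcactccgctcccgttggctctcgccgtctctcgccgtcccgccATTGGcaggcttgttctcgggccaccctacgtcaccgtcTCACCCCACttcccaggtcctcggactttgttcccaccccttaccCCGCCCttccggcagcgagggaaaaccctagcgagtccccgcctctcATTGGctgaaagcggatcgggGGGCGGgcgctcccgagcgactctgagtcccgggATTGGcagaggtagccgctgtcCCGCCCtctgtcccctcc
*Idi1*, chr13:8885356-8885655, plus strand: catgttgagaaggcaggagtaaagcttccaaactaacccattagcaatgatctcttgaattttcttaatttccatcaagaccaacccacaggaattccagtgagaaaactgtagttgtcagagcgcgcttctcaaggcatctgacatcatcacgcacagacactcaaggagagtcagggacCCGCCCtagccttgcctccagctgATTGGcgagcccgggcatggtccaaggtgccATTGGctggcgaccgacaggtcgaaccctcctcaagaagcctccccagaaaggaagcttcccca
*Msmo1*, chr8:64733529-64733828, minus strand: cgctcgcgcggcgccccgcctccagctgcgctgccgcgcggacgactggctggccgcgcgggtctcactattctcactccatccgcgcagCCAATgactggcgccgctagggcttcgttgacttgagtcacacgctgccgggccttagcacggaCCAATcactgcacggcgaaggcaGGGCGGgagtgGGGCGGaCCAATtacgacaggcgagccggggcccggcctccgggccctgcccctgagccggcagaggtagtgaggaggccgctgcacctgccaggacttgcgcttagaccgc
*Srebf2*, chr15:82147019-82147318, plus strand: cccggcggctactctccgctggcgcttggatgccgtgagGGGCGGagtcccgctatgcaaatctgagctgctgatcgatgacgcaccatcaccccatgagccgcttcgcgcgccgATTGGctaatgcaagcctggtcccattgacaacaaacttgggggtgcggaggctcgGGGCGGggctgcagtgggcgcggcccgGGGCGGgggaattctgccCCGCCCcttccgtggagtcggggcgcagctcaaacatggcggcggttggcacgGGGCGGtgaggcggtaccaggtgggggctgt
*Elovl6*, chr3:129532136-129532435, plus strand: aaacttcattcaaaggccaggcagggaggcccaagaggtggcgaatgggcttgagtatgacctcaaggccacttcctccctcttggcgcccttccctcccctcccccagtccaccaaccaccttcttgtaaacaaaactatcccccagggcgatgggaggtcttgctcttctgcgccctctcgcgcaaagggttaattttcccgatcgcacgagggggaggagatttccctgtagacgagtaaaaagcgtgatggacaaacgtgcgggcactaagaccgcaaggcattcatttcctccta

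The *Hmgcs1* window held 1 match to the sterol regulatory element beside 4 CCAAT boxes and 3 GC boxes. The element was found in 1 of the 34 member windows (2.94%) and in 1.24% of all 32851 promoter windows. *Idi1* had 2 CCAAT boxes and 1 GC box, *Msmo1* 3 and 2, and *Srebf2* 1 and 5, whereas no match lay in the *Elovl6* window. A CCAAT box was present in 22 of the 34 member windows (64.7%) against 37.4% of all windows, a GC box in 26 (76.5%) against 35.7%, and an E-box in 6 (17.6%) against 7.15%. These are matches of letters in a short window, and their part in expression was not measured.

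In control myotubes, EPS was followed by higher mRNA of a few enzymes before and after squalene in the sterol route. The mRNA of *Srebf1*, *Fdps* and *Fads1* was lower. At EPS 0h against Rest, 4 of 34 members were called higher at an FDR under 0.05 (11.8%, where 20.5% of all genes tested were higher) and 3 lower (8.82%, where 18.4% of all genes were lower). At EPS 3h against Rest, 6 were higher (17.6%, beside 26.1% of all genes) and 7 lower (20.6%, beside 25.9%). The median log2 fold change of the members was -0.04 at EPS 0h and -0.11 at EPS 3h, against -0.03 and -0.02 over all genes. The plot of log2 fold changes by role shows that risers and fallers stood in the same lists. In RNA from whole wells, a lower level per cell and a smaller number of expressing cells cannot be told apart.

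**Figure D1:**
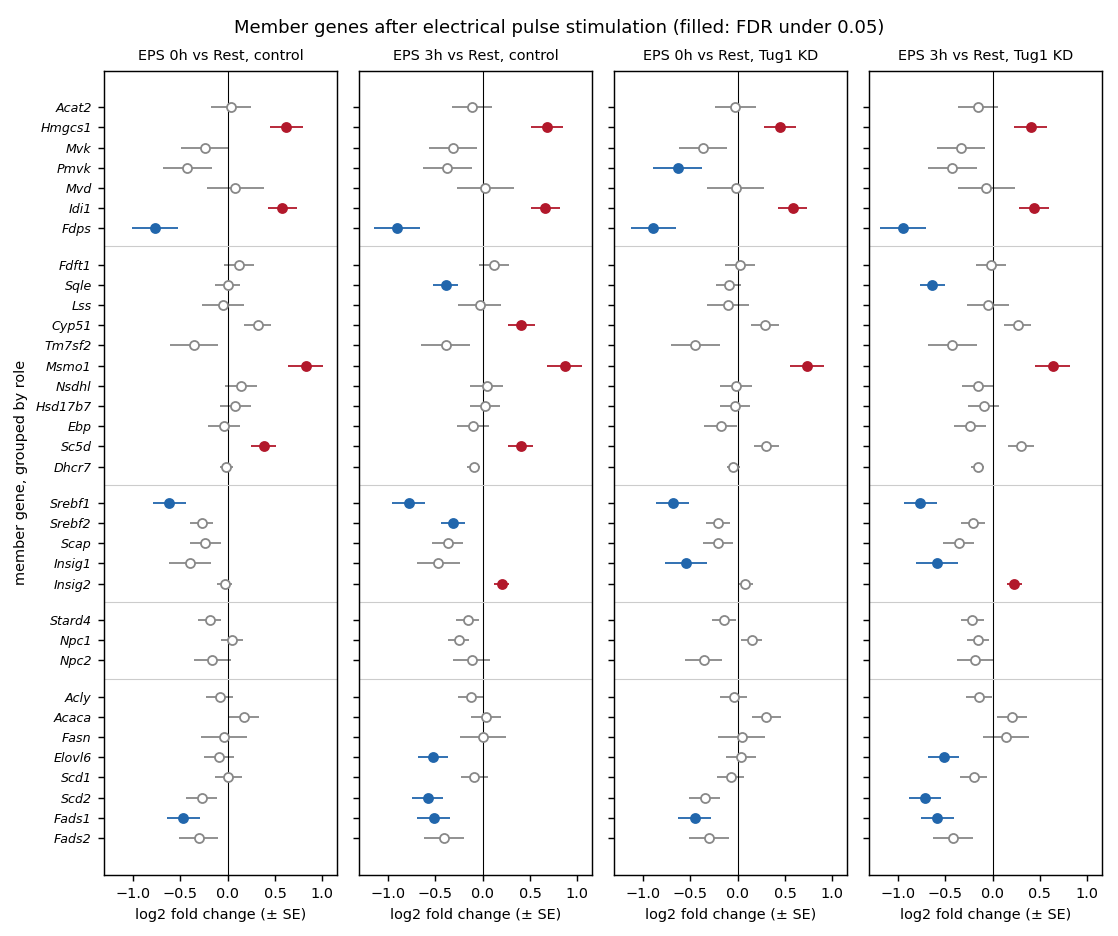
Log2 fold change (x axis, ± SE) of each of the 34 members (y axis, grouped by role) at EPS 0h and EPS 3h against Rest, in control and in *Tug1* KD myotubes, with 6 libraries per group. Filled points passed an FDR of 0.05 (red higher, blue lower): 4 higher and 3 lower at EPS 0h and 6 higher and 7 lower at EPS 3h in control, 3 higher and 5 lower and then 4 higher and 7 lower in *Tug1* KD.

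A block by replicate number was also fitted, because same-numbered libraries deviated together, as described in the processing. With it, the calls in control became 5 higher (14.7%, beside 24.4% of all genes) and 10 lower (29.4%, beside 25.5%) at EPS 0h, and 6 higher (17.6%, beside 29.6%) and 14 lower (41.2%, beside 31.6%) at EPS 3h. The share of members called lower was thus under that of all genes without the block and above it with the block, whereas the share called higher was under it in both fits. All 7 and all 13 calls made without the block were among them. The genes gained at both time points were *Fads2*, *Insig1*, *Pmvk*, *Scap* and *Tm7sf2*, all lower. With scaling by library size only, the median log2 fold change over all genes at EPS 3h moved by -0.169, and the calls became 3 higher and 13 lower, with *Cyp51*, *Sc5d* and *Insig2* no longer called. The shares of all genes called with this scaling are not given here, so its counts describe the members only.

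In the mevalonate pathway, 2 of 7 members rose and 1 fell at both time points in control myotubes. *Hmgcs1* (ENSMUSG00000093930, chromosome 13, 120151915 to 120170470 in GRCm39) encodes the cytosolic synthase that makes HMG-CoA. Its level in control myotubes was 135 to 152 CPM at Rest (median 142), 165 to 278 at EPS 0h (median 221) and 105 to 302 at EPS 3h (median 238). All EPS 0h libraries were above all Rest libraries, and at EPS 3h only replicate 3, at 105 CPM, lay under the Rest libraries, while the other 5 lay between 208 and 302. Its log2 fold change was 0.62 (SE 0.172, FDR = 0.00427) at EPS 0h and 0.68 (SE 0.172, FDR = 0.0012) at EPS 3h. Without EPS 3h control replicate 3, the EPS 3h value was 0.83.

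*Idi1* (ENSMUSG00000058258, chromosome 13, 8935537 to 8942487), the isomerase that interconverts the 5-carbon isoprenoid units, was at 32.1 to 43.7 CPM at Rest (median 36.4), 47.7 to 64.2 at EPS 0h (median 58.1) and 31.4 to 75.0 at EPS 3h (median 61.8). As for *Hmgcs1*, EPS 0h did not overlap Rest and at EPS 3h replicate 3 alone was low. This gave a log2 fold change of 0.58 (SE 0.156, FDR = 0.00342) and 0.66 (SE 0.157, FDR = 0.000559), and the latter became 0.79 without that replicate. Processed copies of its transcript lie at *Idi1-ps1* (99.9% identical) and *Idi1-ps2* (96.9%), which held at most 0.745 CPM, so reads shared with them could be split by the counting.

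*Fdps* (ENSMUSG00000059743, chromosome 3, 89000888 to 89019213), which makes farnesyl diphosphate, went the other way and had the lowest read counts of the 34. It was at 4.88 to 8.16 CPM at Rest (median 5.89), 1.80 to 5.28 at EPS 0h (median 3.93) and 2.04 to 5.13 at EPS 3h (median 2.86) in control myotubes. The groups overlapped only by the highest EPS library at each time, and each EPS library was under the Rest mean. On the log2 scale the change was -0.77 (SE 0.242, FDR = 0.0109) at EPS 0h and -0.90 (SE 0.244, FDR = 0.00224) at EPS 3h. Copies at least 95.7% identical over most of the transcript lie at 4 pseudogenes on chromosomes 6, 10, 13 and X, of which *Gm3571* held 0.281 to 1.02 CPM, so the level of *Fdps* is uncertain. The other 4 members of the pathway, *Acat2*, *Mvk*, *Pmvk* and *Mvd*, had log2 fold changes between -0.43 and 0.08 in control, none called. A protein-coding gene, *Acat3*, is 97.1% identical over 68% of the *Acat2* transcript and held 0.167 to 5.22 CPM, so reads shared with it could be split by the counting.

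Of the 11 genes from squalene synthesis to cholesterol, *Msmo1* and *Sc5d* rose at both time points, *Cyp51* rose and *Sqle* fell at EPS 3h. *Msmo1* (ENSMUSG00000031604, chromosome 8, 65170603 to 65186830), the sterol C4-methyl oxidase, had the largest rise of all members. In control it was at 89.6 to 163 CPM at Rest (median 117), 197 to 274 at EPS 0h (median 204) and 101 to 293 at EPS 3h (median 240). EPS 0h lay wholly above Rest, and at EPS 3h replicate 3 (101 CPM) was the only library within the Rest range. By edgeR, the log2 fold change was 0.82 (SE 0.183, FDR = 0.000475) at EPS 0h and 0.86 (SE 0.183, FDR = 0.00015) at EPS 3h, a 1.82-fold rise, and 1.01 without replicate 3.

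*Cyp51* (ENSMUSG00000001467, chromosome 5, 4123416 to 4154751), the lanosterol 14-demethylase, was at 212 to 360 CPM at Rest (median 272), 310 to 403 at EPS 0h (median 341) and 246 to 452 at EPS 3h (median 390). The groups overlapped, because the Rest libraries fell into a low set of replicates 1 to 3 and a high set of replicates 4 to 6. Its log2 fold change was 0.32 (FDR = 0.0785) at EPS 0h and 0.41 (SE 0.144, FDR = 0.0171) at EPS 3h, and the EPS 0h value was also called with the replicate block (FDR = 0.00147). *Sc5d*, the lathosterol oxidase, had log2 fold changes of 0.38 (FDR = 0.0257) and 0.40 (FDR = 0.0137).

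**Figure D2:**
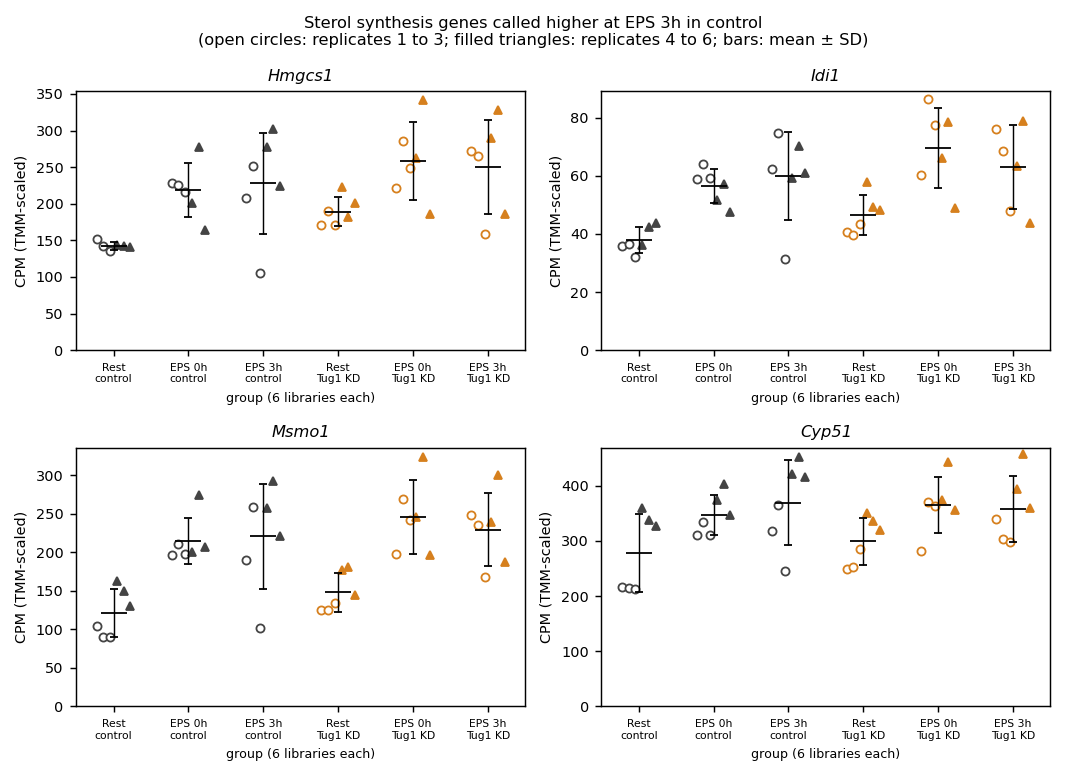
CPM (y axis, linear, from 0) of *Hmgcs1*, *Idi1*, *Msmo1* and *Cyp51* in each of the 6 libraries of the 6 groups (x axis). Circles are replicates 1 to 3, triangles replicates 4 to 6, and bars the mean ± SD; the single low circle at EPS 3h in control is replicate 3, at 105 CPM for *Hmgcs1*, 31.4 for *Idi1* and 101 for *Msmo1*.

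*Sqle* (ENSMUSG00000022351, chromosome 15, 59186869 to 59203043), the squalene epoxidase and a slow step of the route, did not follow them. In control it was at 161 to 234 CPM at Rest (median 199), 173 to 232 at EPS 0h (median 195) and 109 to 191 at EPS 3h (median 151). At EPS 3h each library lay under the Rest mean, and the ranges overlapped. This gave a log2 fold change of 0.00 (FDR = 0.995) at EPS 0h and -0.39 (SE 0.131, FDR = 0.0122) at EPS 3h, and -0.39 (FDR = 0.0345) from EPS 0h to EPS 3h. Without EPS 3h control replicate 3, the change from EPS 0h to EPS 3h was -0.31 and no longer called (FDR = 0.107). The other 7 genes of this list (*Fdft1*, *Lss*, *Tm7sf2*, *Nsdhl*, *Hsd17b7*, *Ebp* and *Dhcr7*) had log2 fold changes between -0.39 and 0.14, none called.

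Among the SREBP factors and their retention proteins, both precursor genes were called lower at EPS 3h. *Insig2* was called higher, a call that was lost in several other fits. *Srebf1* (ENSMUSG00000020538, chromosome 11, 60089913 to 60113407) encodes SREBP-1. Its level in control was 210 to 311 CPM at Rest (median 256), 121 to 216 at EPS 0h (median 169) and 101 to 187 at EPS 3h (median 164). EPS 3h lay wholly under Rest, and EPS 0h overlapped Rest by its highest library. On the log2 scale the change was -0.62 (SE 0.174, FDR = 0.00487) and -0.78 (SE 0.175, FDR = 0.000312), a 1.72-fold fall at EPS 3h.

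*Srebf2* (ENSMUSG00000022463, chromosome 15, 82031382 to 82093201), the gene of SREBP-2, was at 396 to 518 CPM at Rest (median 439), 311 to 423 at EPS 0h (median 376) and 283 to 412 at EPS 3h (median 394). The ranges overlapped, with every EPS 3h library under the Rest mean. By edgeR, the log2 fold change was -0.28 (FDR = 0.0804) and -0.31 (SE 0.126, FDR = 0.0371). *Insig2* (ENSMUSG00000003721, chromosome 1, 121181760 to 121260400), a retention protein, was at 69.9 to 77.4 CPM at Rest (median 73.7), 64.3 to 78.6 at EPS 0h (median 72.3) and 69.6 to 108 at EPS 3h (median 80.8). Its log2 fold change was -0.03 at EPS 0h and 0.20 (SE 0.078, FDR = 0.0308) at EPS 3h, and 0.03 (FDR = 0.751) with scaling by library size only. The EPS 3h call of *Insig2* was also lost with upper quartile scaling and with either other filter. It was not made in either replicate set alone or with the compared groups alone. *Insig1*, whose transcript has a copy 97.8% identical on chromosome 3, and *Scap*, the escort protein, had EPS 3h values of -0.47 (FDR = 0.0767) and -0.37 (FDR = 0.0553).

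The sterol transport genes are *Stard4*, a cytosolic carrier, and *Npc1* and *Npc2*, which release cholesterol from lysosomes. None was called in any EPS comparison of the main fit, which had TMM scaling and no block. Some other fits without a block did call them. At EPS 3h against Rest in control, library size only called *Npc1* and *Stard4*, and upper quartile scaling called *Npc1*. In replicates 1 to 3 alone, *Npc2* was called at EPS 0h against Rest in *Tug1* KD. With the replicate block, *Npc1* was called lower at EPS 3h against Rest in control (-0.26, FDR = 0.0101) and from EPS 0h to EPS 3h in *Tug1* KD (-0.31, FDR = 0.00773), and *Npc2* at EPS 0h against Rest in *Tug1* KD (-0.42, FDR = 0.001). The block also called *Npc1* from EPS 0h to EPS 3h in control and *Stard4* at EPS 3h against Rest in *Tug1* KD. In those comparisons same-numbered libraries did not all deviate together. In the main fit, the log2 fold changes of the sterol transport genes in control ranged from -0.19 to 0.05 at EPS 0h. At EPS 3h they ranged from -0.25 to -0.11.

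Of the 8 fatty acid genes, 3 fell and none rose at EPS 3h in control, all of them enzymes that act on finished fatty acyl chains. *Scd2* (ENSMUSG00000025203, chromosome 19, 44281613 to 44295303), a stearoyl-CoA desaturase, was at 1418 to 2058 CPM at Rest (median 1698), 1187 to 1644 at EPS 0h (median 1414) and 777 to 1565 at EPS 3h (median 1127). Its highest EPS 3h library alone overlapped the Rest range, and all 6 were under the Rest mean. Its log2 fold change was -0.28 (FDR = 0.188) and -0.58 (SE 0.165, FDR = 0.00348).

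*Elovl6* (ENSMUSG00000041220, chromosome 3, 129326004 to 129432144), the elongase of 16-carbon chains, was at 27.0 to 50.3 CPM at Rest (median 35.9), 31.2 to 38.2 at EPS 0h (median 33.6) and 16.8 to 34.9 at EPS 3h (median 26.9). The groups overlapped, with each EPS 3h library under the Rest mean. This gave a log2 fold change of -0.09 (FDR = 0.677) and -0.53 (SE 0.160, FDR = 0.0061). *Fads1*, the delta-5 desaturase, fell at both times, by 0.47 (FDR = 0.0301) and 0.52 (FDR = 0.0131) on the log2 scale. The core synthesis enzymes *Acly*, *Acaca* and *Fasn* had values of -0.12, 0.04 and 0.00 at EPS 3h, and *Scd1* and *Fads2* -0.09 and -0.41, none called.

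**Figure D3:**
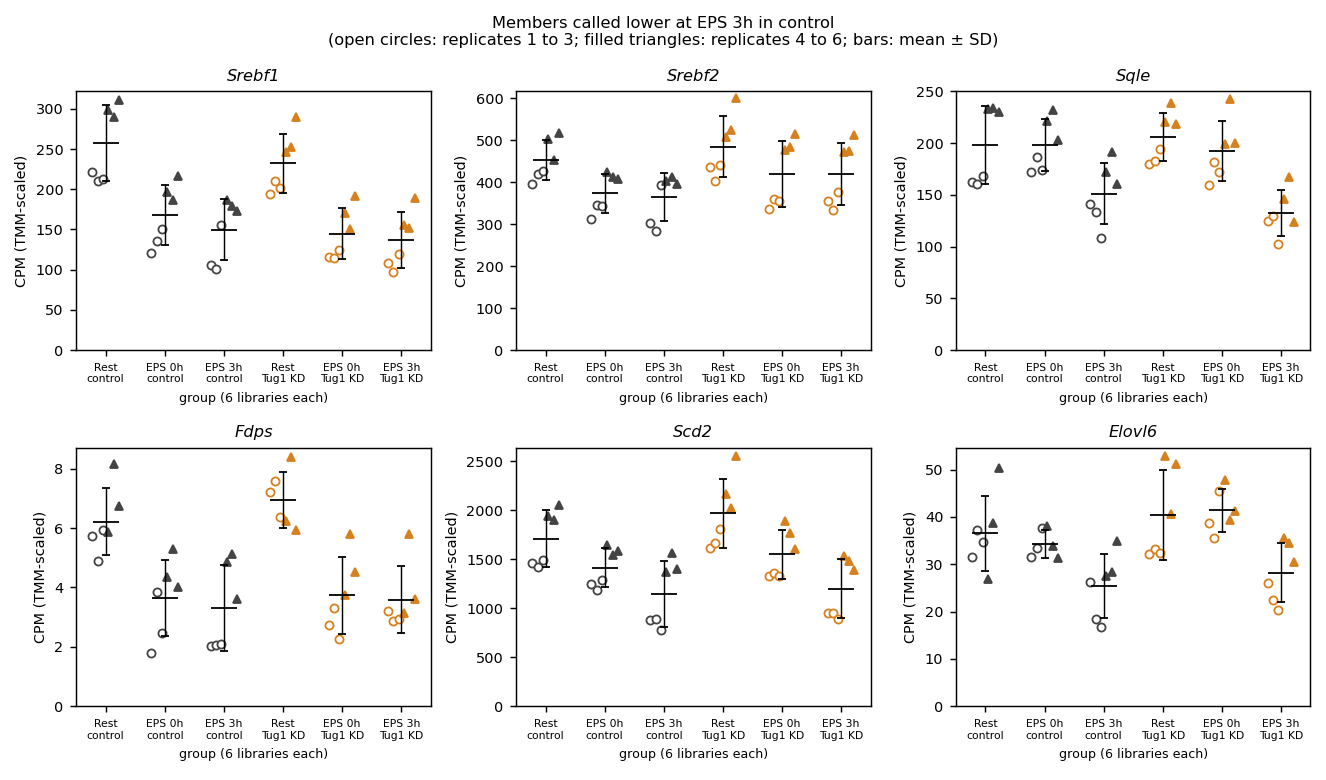
CPM (y axis, linear, from 0) of *Srebf1*, *Srebf2*, *Sqle*, *Fdps*, *Scd2* and *Elovl6* in each library of the 6 groups (x axis). Circles are replicates 1 to 3, triangles replicates 4 to 6, and bars the mean ± SD; *Srebf1* and *Fdps* were low at both EPS time points, while *Sqle* and *Elovl6* were low at EPS 3h.

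From EPS 0h to EPS 3h in control myotubes, 1 member was called higher (2.94%, where 9.67% of all genes were higher) and 1 lower (2.94%, where 6.88% were lower). They were *Insig2*, with a log2 fold change of 0.23 (FDR = 0.0351), and *Sqle*, given above. The 4 enzymes that had risen by EPS 0h had values of 0.02 to 0.08 over the recovery, none called. With scaling by library size only, 0 were higher and 3 lower, and the median over all genes moved by -0.094. Shares of all genes called with this scaling are not given here, so these counts describe the members only.

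In *Tug1* KD myotubes, the comparisons with Rest called 3 members higher (8.82%, beside 24.4% of all genes) and 5 lower (14.7%, beside 21.2%) at EPS 0h, and 4 higher (11.8%, beside 26.2%) and 7 lower (20.6%, beside 25.9%) at EPS 3h. *Msmo1* was at 125 to 181 CPM at Rest (median 140), 197 to 324 at EPS 0h (median 244) and 168 to 300 at EPS 3h (median 237). EPS 0h did not overlap Rest, and at EPS 3h only the lowest library came within the Rest range. Its log2 fold change was 0.73 (SE 0.182, FDR = 0.00128) and 0.63 (SE 0.182, FDR = 0.0037). *Hmgcs1* had values of 0.45 (FDR = 0.0329) and 0.40 (FDR = 0.0485), and *Idi1* 0.58 (FDR = 0.0027) and 0.44 (FDR = 0.0176). With scaling by library size only, *Hmgcs1* was called at neither time (FDR = 0.0911 and 0.242) and *Idi1* not at EPS 3h (FDR = 0.129).

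*Sqle* in *Tug1* KD went from 180 to 239 CPM at Rest (median 207) and 160 to 243 at EPS 0h (median 191) to 102 to 168 at EPS 3h (median 128), so that EPS 3h no longer overlapped Rest. The log2 fold change at EPS 3h was -0.64 (SE 0.131, FDR = 0.000106). *Srebf1* fell by 0.68 and 0.76 on the log2 scale (FDR = 0.00169 and 0.000389), *Fdps* by 0.89 and 0.95 (FDR = 0.00302 and 0.00138) and *Fads1* by 0.46 and 0.58 (FDR = 0.0319 and 0.00521). At EPS 3h *Scd2* also fell, by 0.71 (FDR = 0.000437), and *Elovl6*, by 0.52 (FDR = 0.00679).

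*Insig1* was called lower in *Tug1* KD, by 0.55 at EPS 0h (FDR = 0.0423) and 0.59 at EPS 3h (FDR = 0.0254). Without EPS 3h *Tug1* KD replicate 3, the EPS 3h value of *Insig1* was not called (FDR = 0.0681). *Pmvk*, the phosphomevalonate kinase, was called lower at EPS 0h, by 0.63 (FDR = 0.0438). *Insig2* was higher at EPS 3h (0.23, FDR = 0.0144), and not with scaling by library size only (FDR = 0.51). In *Tug1* KD, scaling by library size only gave 1 higher and 17 lower at EPS 3h, with a shift of -0.166 in the median of all genes. Shares of all genes called with this scaling are not given here, so these counts describe the members only. With the replicate block at EPS 0h, 6 members were higher (17.6%, beside 27.9% of all genes) and 12 lower (35.3%, beside 29%).

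From EPS 0h to EPS 3h in *Tug1* KD, no member was called higher (8.59% of all genes were) and 2 were lower (5.88%, beside 7.13%), *Sqle* (-0.54, FDR = 0.00311) and *Elovl6* (-0.55, FDR = 0.0144). Without EPS 3h *Tug1* KD replicate 3, *Elovl6* was not called (FDR = 0.0526). With the replicate block, *Npc1* and *Scd2* joined them, giving 4 lower (11.8%, beside 12.3% of all genes) and 0 higher (beside 11.8%).

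Whether EPS acted differently in *Tug1* KD and control myotubes was asked with the interaction term. No member was called at EPS 0h (0% of all genes in either direction) or at EPS 3h (0.00715% of all genes higher and 0% lower), and none had an unadjusted p under 0.05, by edgeR. DESeq2, limma-voom and the replicate block also called 0 members. The differences in response ranged from -0.21 to 0.13 on the log2 scale at EPS 0h and from -0.28 to 0.17 at EPS 3h. The widest were those of *Hmgcs1* (-0.28, SE 0.243) and *Sqle* (-0.25, SE 0.184) at EPS 3h, so differences of this size could not be told from 0 with 6 libraries per group. The *Hmgcs1* value was -0.42 without EPS 3h control replicate 3.

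*Tug1* KD against control gave few calls among the members, all of them higher, and the plot of the 3 contrasts shows most values slightly above 0. At Rest 1 member was higher (2.94%, beside 5.54% of all genes) and 0 lower (beside 4.47%). At EPS 0h the counts were 1 (2.94%, beside 8.25%) and 0 (beside 6.07%), and at EPS 3h 2 (5.88%, beside 6.38%) and 0 (beside 5.11%). The members' median log2 fold change was 0.14 at Rest, 0.09 at EPS 0h and 0.07 at EPS 3h, with 28, 25 and 26 of 34 above 0, where the medians over all genes were -0.03, 0.00 and -0.01, and it was 0.12, 0.05 and 0.05 with scaling by library size only. All 7 mevalonate genes and all 11 genes from squalene to cholesterol were above 0 at Rest, of which *Dhcr7* alone was called. Among the markers of other cell types, *Cd68* was lower in *Tug1* KD at Rest (1.88 against 3.82 CPM, log2 fold change -1.02, FDR = 0.000116) and at EPS 3h (-0.72, FDR = 0.00902), with -0.27 at EPS 0h (FDR = 0.355). The fibroblast marker *Pdgfra* was lower in every state (-0.57, -0.80 and -0.69, FDR = 0.00632, 0.000205 and 0.00162), while *Col1a1* and *Dcn* were not called, and the part of these changes in the member values was not tested. The Rest median over all members came to 0.24 when replicates 1 to 3 were fitted alone and to 0.04 for the other 3 replicates.

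*Dhcr7* (ENSMUSG00000058454, chromosome 7, 143376740 to 143402149), the reductase of the last step to cholesterol, was the member called in every state when all libraries were fitted together. At Rest it was at 108 to 141 CPM in control (median 116) and 134 to 152 in *Tug1* KD (median 143), at EPS 0h at 105 to 128 (median 116) and 124 to 151 (median 141), and at EPS 3h at 105 to 117 (median 111) and 114 to 138 (median 131). The ranges overlapped in each state, and all 6 *Tug1* KD libraries were above the control mean each time. On the log2 scale the change was 0.27 (SE 0.068, FDR = 0.00654) at Rest, 0.24 (SE 0.068, FDR = 0.0135) at EPS 0h and 0.21 (SE 0.068, FDR = 0.0429) at EPS 3h, a 1.15-fold difference, with an FDR of 0.0578 at EPS 3h under scaling by library size only. Its values after EPS in control were -0.01 and -0.09, neither called. The *Tug1* KD calls of *Dhcr7* were less steady in other fits. In replicates 4 to 6 alone it was called in no state, and in replicates 1 to 3 alone only at Rest. With no filter on low counts it was called in no state. Upper quartile scaling lost the calls at EPS 0h and EPS 3h. The compared groups alone, and a filter of 10 counts in 6 libraries, lost the call at EPS 3h.

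*Acaca* (ENSMUSG00000020532, chromosome 11, 84020476 to 84292477), acetyl-CoA carboxylase 1, which makes malonyl-CoA, was called at EPS 3h. It was at 39.7 to 69.3 CPM in control (median 59.8) and 54.2 to 93.6 in *Tug1* KD (median 79.3), with overlapping ranges and 5 of 6 *Tug1* KD libraries above the control mean. By edgeR, the log2 fold change was 0.46 (SE 0.156, FDR = 0.0471), and 0.39 without EPS 3h control replicate 3, when it was not called (FDR = 0.119). At EPS 0h, where *Tug1* KD (78.3 to 93.4 CPM) did not overlap control (54.6 to 70.8 CPM), the value was 0.43 (FDR = 0.0612). A pseudogene copy, *Gm5182* (99.5% identical over 85% of the transcript), held 1.26 to 5.69 CPM.

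With the replicate block, *Tug1* KD against control called 2 members higher (5.88%, beside 13.1% of all genes) and 1 lower (2.94%, beside 11.2%) at EPS 0h, and 3 higher (8.82%, beside 10.8%) and 0 lower (beside 9.75%) at EPS 3h. The genes gained were *Acaca* (FDR = 0.00445) and, lower, *Srebf1* (-0.21, FDR = 0.0312) at EPS 0h, and *Srebf2* (0.20, FDR = 0.0281) at EPS 3h.

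**Figure D4:**
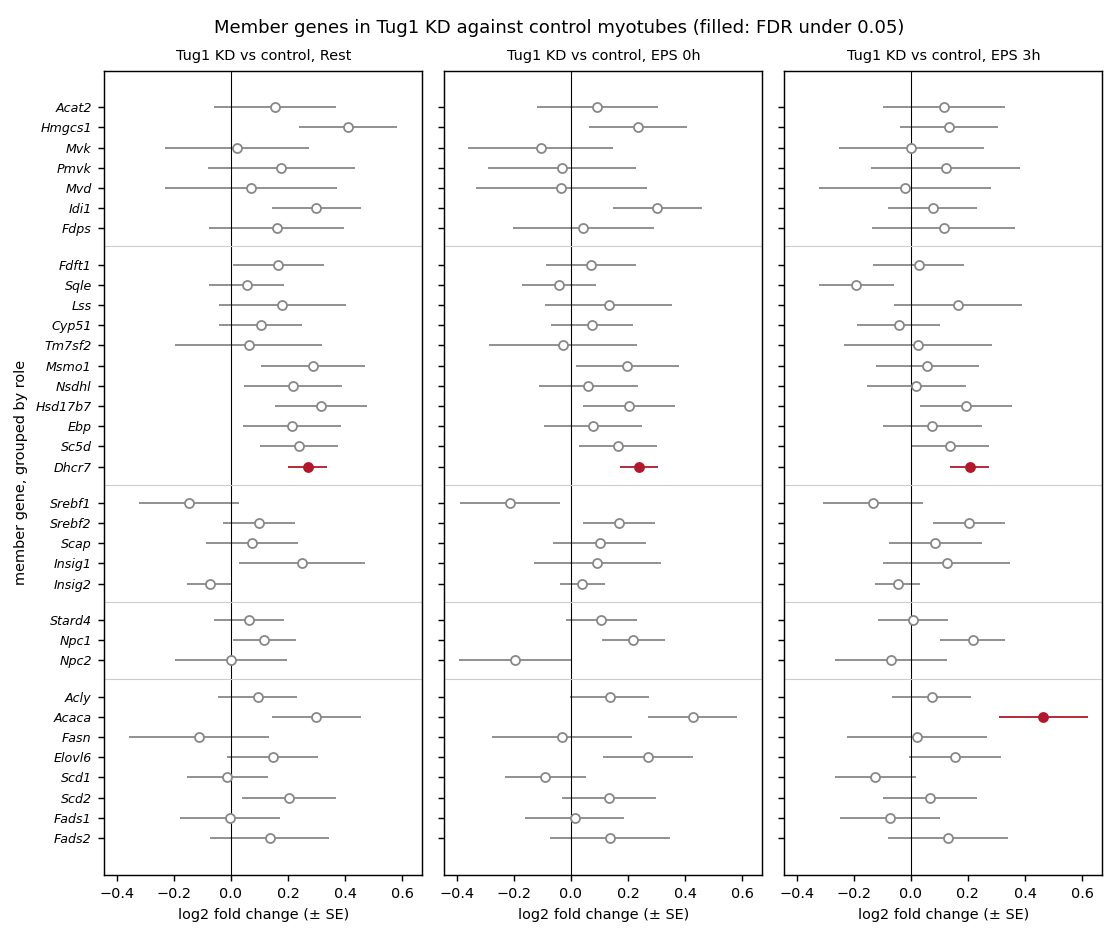
Log2 fold change (x axis, ± SE) of each of the 34 members (y axis, grouped by role) in *Tug1* KD against control myotubes at Rest, EPS 0h and EPS 3h, with 6 libraries per group. Filled points passed an FDR of 0.05: *Dhcr7* in each state and *Acaca* at EPS 3h, while 28, 25 and 26 of 34 values lay above 0.

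The members varied between the sets of replicates in the same group. In each of the 6 groups, 29 to 32 of the 34 members had a higher mean in replicates 4 to 6 than in replicates 1 to 3, and in 22 to 27 members all of replicates 4 to 6 were above all of replicates 1 to 3. The same counts were not made over all genes, so this is not shown to be particular to the members. The median ratio of the means was between 1.27 (Rest *Tug1* KD) and 1.48 (EPS 3h control). *Mvd*, the mevalonate diphosphate decarboxylase, had the widest ratio, 2.44 in EPS 0h control. *Fasn*, fatty acid synthase, differed by 1.63 to 1.89 in every group, whereas *Dhcr7* stayed between 0.896 and 1.07 and *Insig2* between 0.904 and 1.01. The study's methods do not say which replicate numbers came from which experiment, so this split follows the data.

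The EPS values of each set are given as a description, since the genes were called over both sets together. At EPS 3h in control, *Msmo1* had 0.97 in replicates 1 to 3 and 0.80 in replicates 4 to 6, *Idi1* 0.71 and 0.64, and *Srebf1* -0.82 and -0.74. *Fdps* had -1.39 and -0.61, and *Hmgcs1*, with the low replicate 3 in the first set, 0.42 and 0.91. Of the 13 calls at EPS 3h in control, those of *Hmgcs1*, *Insig2* and *Sc5d* were not made in replicates 1 to 3 alone (FDR = 0.142, 0.0636 and 0.143), and those of *Elovl6* and *Insig2* not in replicates 4 to 6 alone (FDR = 0.0889 and 0.248). In *Tug1* KD, of 11 calls, that of *Hmgcs1* was made in neither set alone (FDR = 0.137 and 0.126), and those of *Idi1*, *Insig1* and *Insig2* not in replicates 4 to 6 alone (FDR = 0.248, 0.0656 and 0.165).

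**Figure D5:**
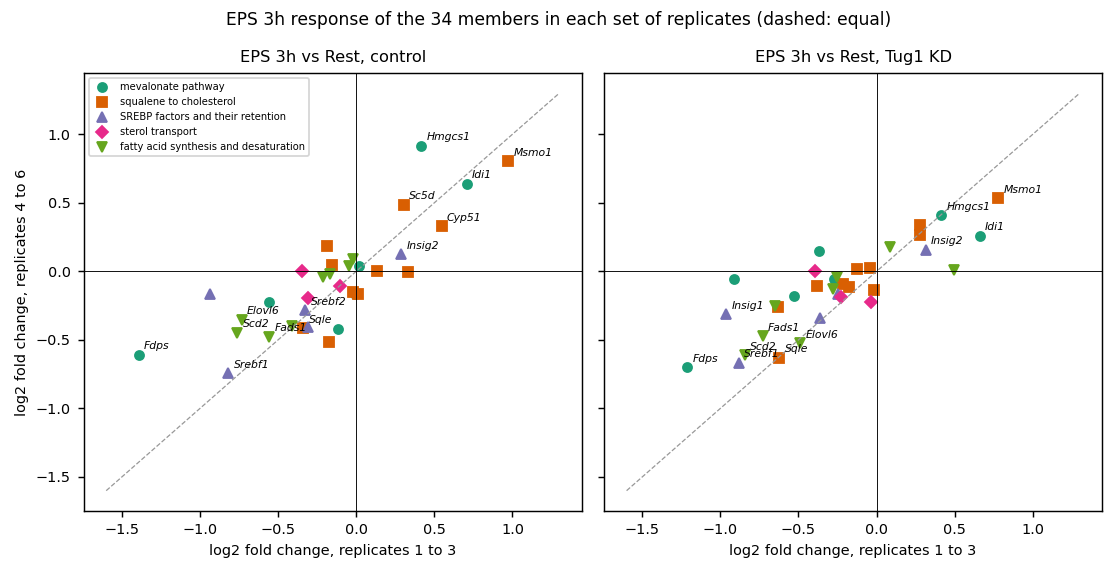
Log2 fold change at EPS 3h against Rest in replicates 1 to 3 (x axis) and in replicates 4 to 6 (y axis) for the 34 members, in control and in *Tug1* KD myotubes. Shapes and colours give the role, the dashed line marks equal values, and the named genes were called over all 6 replicates; *Msmo1* lies at 0.97 and 0.80 and *Fdps* at -1.39 and -0.61 in control.

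Genes of neighbouring pathways were read from 5 lists, whose 62 measured genes gave 16 calls higher (25.8%, beside 26.1% of all genes) and 21 lower (33.9%, beside 25.9%) at EPS 3h in control. Of 18 measured genes around lipogenesis, 4 rose (22.2%) and 6 fell (33.3%). The largest falls were those of *Mid1ip1*, an activator of acetyl-CoA carboxylase (-1.19, FDR = 1.32e-10), and *G6pdx*, the first enzyme of the NADPH-making pentose phosphate pathway (-1.16, FDR = 4.66e-07), and the largest rises those of malic enzyme *Me1* (0.47, FDR = 6.93e-05) and the elongase *Elovl5* (0.42, FDR = 0.000432). Of 11 genes of the isoprenoid branches, 4 rose (36.4%) and 3 fell (27.3%), with *Pdss1*, which makes the ubiquinone side chain, at 0.62 (FDR = 0.00363).

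Of 12 genes of SREBP cleavage and sterol-regulated turnover, 2 rose (16.7%, beside the same 26.1% of all genes) and 5 fell (41.7%, beside 25.9%). *Mbtps1*, the site-1 protease that cuts SREBP, fell by 0.73 on the log2 scale (FDR = 1.1e-05), and *Paqr3*, a Golgi anchor of SCAP, rose by 0.68 (FDR = 6.08e-05). Of 9 measured genes of sterol export, LXR and esterification, 2 rose and 2 fell (22.2% each), with *Cyp27a1*, the sterol 27-hydroxylase, at 1.24 (FDR = 1.06e-06), *Mylip*, a ligase that degrades lipoprotein receptors, at 0.64 (FDR = 4.41e-05) and *Ch25h*, the cholesterol 25-hydroxylase, at -0.89 (FDR = 0.00581). Of 12 intracellular sterol carriers, 4 rose (33.3%) and 5 fell (41.7%), from *Gramd1c* (1.35, FDR = 0.000304) to *Stard3* (-0.55, FDR = 0.000685).

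In *Tug1* KD against control, 3 of the 62 neighbouring genes were called higher at Rest (4.84%, beside 5.54% of all genes). The count was 4 at EPS 0h (6.45%, beside 8.25%) and 4 at EPS 3h (6.45%, beside 6.38%). These shares called higher were near those of all genes. In each state 0 were called lower, beside 4.47%, 6.07% and 5.11% of all genes at Rest, EPS 0h and EPS 3h. The genes called higher are named here after their values were seen. Besides 3 that were called in every state, they were *Erlin2* at EPS 0h (0.30, FDR = 0.0221) and the cholesterol exporter *Abca1* at EPS 3h (0.75, FDR = 0.039). *Acss2*, which makes cytosolic acetyl-CoA from acetate, was at 10.1 to 12.8 CPM in control (median 12.1) and 16.9 to 20.3 in *Tug1* KD (median 18.6) at Rest, with no overlap. Its log2 fold change was 0.68 at Rest (FDR = 1.23e-06), 0.66 at EPS 0h (FDR = 1.74e-06) and 0.61 at EPS 3h (FDR = 9.63e-06). *Pdss2*, the partner of *Pdss1*, had 0.65, 0.56 and 0.63, and *Pggt1b*, the beta subunit of a geranylgeranyl transferase, 0.47, 0.54 and 0.41, all called.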

How the data were processed

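RNA from 36 C2C12 myotube cultures was sequenced as stranded poly-A libraries. The authors checked reads with FastQC (0.11.7), trimmed them with fastp (0.14.1) and aligned them to GRCm39 with STAR (2.5), versions per the labels, and deposited raw gene counts, which were used as they stand. The strand setting and tool of the counting are not given in the sources used here, so reads of antisense partners cannot be told apart. Library sizes were 17005079 to 24181167 counts, and no pair of libraries of a group agreed within sampling noise (lowest chi-square per degree of freedom 4.32). Of the matrix, 1492 genes have no name, and 0 columns belong to no sample.

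Genes at 1 CPM or more in at least 12 libraries were fitted together in all 6 groups with edgeR's (4.0.16) quasi-likelihood test in R 4.3.3, after TMM scaling, and Benjamini-Hochberg adjusted over the 13995 genes (FDR, threshold 0.05). CPM are on TMM-scaled library sizes. Alternatives were limma-voom (limma 3.58.1), DESeq2 (1.42.0), other scaling, other filters, compared groups alone, each replicate set alone, and a block by replicate number or by set. After the data were seen, fits without each of 2 libraries were added. The fit was tested on simulated data.

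Same-numbered libraries deviated together (every r over 0.1) in 6 of 9 comparisons, with r from 0.122 to 0.754, so the blocked counts are given beside those results. Correlations between libraries of different number were not computed. A pairing by number therefore cannot be told apart from the difference between the sets of replicates. In the other 3 comparisons (EPS 3h against EPS 0h in control, EPS 3h against Rest in *Tug1* KD, and *Tug1* KD against control at Rest) this did not hold. The use of the replicate number as a block rests on the data, since the labels do not say what a replicate number stands for.

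The members and all lists were chosen with earlier results of these data known. Full values are given for the 2 called members with the largest change in each direction and list at EPS 3h in control and for every member called in a *Tug1* KD comparison. For each neighbouring list, at most the 2 called genes with the largest change in each direction are named. Transcript copies of at least 95% identity over at least 50% of the transcript were found with minimap2 (2.31-r1302), and promoters were read from RefSeq.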

Additional observations from a re-analysis of the deposited data

Results flagged for a closer look

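In 204 groups of 6 libraries (34 members by 6 groups), a single library lay far from the other 5 in 6 cases, where chance flags about 1 in 20 groups. *Idi1* was 31.4 CPM in EPS 3h control replicate 3, the low library named in the report, against 59.2 to 75.0 CPM in the others. *Msmo1* was 274 CPM in EPS 0h control replicate 5, against 197 to 210 CPM. *Dhcr7* was 141 CPM in Rest control replicate 4, against 108 to 119 CPM, so that this library alone made its Rest groups overlap. *Fdps* was 5.81 CPM in EPS 3h *Tug1* KD replicate 5, against 2.86 to 3.62 CPM. In Rest *Tug1* KD replicate 5, *Mvk*, the mevalonate kinase, was 61.4 CPM against 37.2 to 44.4 CPM, and *Npc2* was 489 CPM against 384 to 419 CPM.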

How the results depend on the processing

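No result changed sign. Of 47 calls of single members, all 47 held with DESeq2 and with either block, 46 with voom, 45 without either EPS 3h replicate 3, 42 with upper quartile scaling, 41 with the stricter filter (10 counts in 6 libraries), 39 with the compared groups alone or replicates 1 to 3, 36 with library size, 30 with no filter and 29 with replicates 4 to 6. Counts of members that moved by over 1.5 times were as follows, and the causes were not tested. Where no share of all genes is given above for a setting, the count describes the members only and is not set against all genes.

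At EPS 0h in control, the 4 higher became 8 in replicates 1 to 3, and the 3 lower became 10 with the replicate block or the set block, 9 in replicates 1 to 3 and 6 in replicates 4 to 6. At EPS 3h in control, the 6 higher became 3 with library size or no filter, and the 7 lower became 13 with library size, 14 with the replicate block, 13 with the set block and 11 in replicates 1 to 3. From EPS 0h to EPS 3h in control, the 1 higher became 0 with library size, no filter, the stricter filter, either set or the groups alone. The 1 lower became 2 with DESeq2 or voom, 3 with library size, upper quartile, no filter or the stricter filter, 4 with either block or replicates 1 to 3, and 0 in replicates 4 to 6, with the groups alone or without EPS 3h control replicate 3.

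At EPS 0h in *Tug1* KD, the 3 higher became 6 with either block or replicates 1 to 3 and 1 in replicates 4 to 6, and the 5 lower 2 with no filter, 12 with either block, 13 in replicates 1 to 3 and 3 in replicates 4 to 6. At EPS 3h in *Tug1* KD, the 4 higher became 1 with library size or no filter and 2 with the stricter filter, and the 7 lower 17 with library size or the set block, 12 with no filter, 18 with the replicate block and 16 in replicates 1 to 3. From EPS 0h to EPS 3h in *Tug1* KD, the 2 lower became 4 with library size, either block or replicates 1 to 3, and 1 in replicates 4 to 6 or without EPS 3h *Tug1* KD replicate 3.

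For *Tug1* KD at Rest, the 1 higher became 0 with no filter, 3 with either block, 4 in replicates 1 to 3 and 2 with the groups alone. At EPS 0h, the 1 higher became 0 with upper quartile, no filter or replicates 1 to 3, 2 with either block, replicates 4 to 6 or without EPS 3h *Tug1* KD replicate 3, and 3 with the groups alone, and 0 lower became 1 with the replicate block. At EPS 3h, the 2 higher became 0 with library size, no filter, the stricter filter or the groups alone, 4 with the set block, and 1 with upper quartile, either set or without EPS 3h control replicate 3.

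Same-numbered libraries deviated together in 6 of 9 comparisons, and beyond the counts above the replicate block ended no call. With 6 wells of 1 line from 2 experiments, intervals cover these wells only, and *Fdps*, at 1.80 to 8.38 CPM, has the widest counting error of the members.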
